A study of Mus musculus with 12 samples.

Results

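The cells described here are the cycling myeloid cells among CD11c-selected cells of mouse breast tumors. They are the 657 cells with at least 1 UMI (1 sequenced RNA molecule) of both Mki67 and Top2a, at least 1 UMI of the leukocyte gene Ptprc and none of the T cell gene Cd3e or the epithelial gene Epcam. These 657 members were drawn from 11639 CD11c-selected cells with at least 200 detected genes, of 34445 such cells in the series. Among the 8125 cells that met the Ptprc, Cd3e and Epcam criteria, 6079 had no UMI of Mki67 or Top2a and served as the non-cycling reference, and 1389 had UMIs of only one of the pair and entered neither group. Members were chosen on measured values, so all gene levels below describe the cells chosen and carry no test.

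Proliferating cells copy their DNA in S phase, for which they make replication helicases, nucleotides and histones, and divide after G2 phase with a separate set of kinases, cyclins and spindle proteins. Mki67 encodes the proliferation antigen Ki-67 and Top2a a topoisomerase that untangles chromosomes before division, and both peak late in the cycle. In tumors, macrophages derive largely from blood monocytes but can also divide in place, whereas conventional dendritic cells (cDC), which present antigen to T cells, arise from dividing precursors under the growth factor FLT3L.

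The series compared tumors of mice carrying the PyMT oncogene, which the MMTV promoter drives in the mammary epithelium, in animals with signaling-competent protease activated receptor 2 (PyMT-PAR2 WT) and with the PAR2 G37I mutation (PyMT-PAR2 G37I), whose receptor resists signaling by coagulation factor Xa. Cells of late-stage tumors were selected with CD11c beads, frozen, thawed and profiled by droplet single-cell RNA-seq, with 3 samples per genotype and no further treatment. A second set of 3 samples per genotype was selected for CD4 and CD8 from mid-size tumors. The 6 CD11c-selected samples stand in 1 count matrix whose barcodes name no sample, so no genotypes were compared and no value has a replicate error. Barcodes fell into 6 alphabetical runs, which are not linked to samples here, and values are given per run as the lowest, median and highest. Of the kept cells, 68 barcodes occurred more than once, which involved 9 members.

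Members held a median of 19167 UMIs and 4063 genes, against 8243 UMIs and 2423 genes in non-cycling cells. Barcode run 4 stood apart, with 360 barcodes at a median of 31161.5 UMIs where the other 5 runs had medians of 6290.0 to 9285.5, and it held 51 of the members. Levels below are given as summed UMIs per 1000000 (CPM), in which deeper cells weigh more. Because of the depth differences, shares are given both with all counts and with each cell thinned to 5000 UMIs.

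The members were divided into 4 gates by identity genes. The macrophage gate (at least 3 UMIs of the complement gene C1qa) held 398 members and 4293 non-cycling cells. The cDC1 gate (at least 1 UMI of Xcr1 or Clec9a, a chemokine receptor and a dead-cell receptor of cross-presenting dendritic cells) held 134 and 436. The cDC2 gate (at least 1 UMI of the lectin Cd209a with at most 2 of C1qa) held 115 and 396. The Fn1-Ccr2 gate (at least 5 UMIs of fibronectin, Fn1, and at least 1 of the monocyte chemokine receptor Ccr2) held 173 and 712. No gate took 31 members, 445 were in 1 gate, 168 in 2 and 13 in 3.

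The gates overlapped, so a gate name states a rule and not a pure cell type. Of the cDC1-gate members, 35.8% (48 cells) were also in the macrophage gate, as were 35.6% of non-cycling cDC1-gate cells. Of the Fn1-Ccr2-gate members, 48.6% were also in the macrophage gate, against 61.4% of the non-cycling cells. Of the cDC2-gate members, 42.6% were also in the Fn1-Ccr2 gate, against 26.8% of the non-cycling cells. Gates rest on minimums of raw UMIs, which deeper cells reach more readily. Members were deeper, with a median of 19883 against 11130.5 UMIs in the cDC2 gate. Overlap was not counted at equal depth.

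Marker genes outside the rules fitted the gate names in part. In the macrophage gate, Csf1r, the receptor for the macrophage growth factor, had a UMI in 96.2% of members, and the lipid carrier gene Apoe in 99.0%. In the cDC1 gate, the dendritic cell growth factor receptor Flt3 was detected in 73.1% of members, but C1qa was also detected in 56.0%. In the cDC2 gate, the lectin Clec10a was detected in 69.6% and Flt3 in 32.2% of members.

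Sequence upstream of cell cycle genes is shown first, since the members were selected by genes of the G2 and mitosis program, and that program and the S phase genes held the larger folds. The stretches cover the 150 bases before the annotated start of each gene (RefSeq, GRCm38.p6, the build that matches the mm10 of the counts), on the strand of the gene. Capitals mark CCAAT boxes, the TTTGAA core of the cell cycle homology region (CHR) and the E2F-type letters TTTCCCGC or TTTGGCGC, each searched on both strands. Cdk1 encodes the kinase that drives entry into mitosis, Ccnb1 encodes its partner cyclin B1, and Mcm5 and Mcm6 encode parts of the replication helicase.
Cdk1, chr10:69352913-69353062, minus strand: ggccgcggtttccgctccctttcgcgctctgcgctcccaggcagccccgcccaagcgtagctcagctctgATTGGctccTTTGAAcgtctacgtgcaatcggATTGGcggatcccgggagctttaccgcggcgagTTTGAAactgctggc
Mki67, chr7:135716380-135716529, minus strand: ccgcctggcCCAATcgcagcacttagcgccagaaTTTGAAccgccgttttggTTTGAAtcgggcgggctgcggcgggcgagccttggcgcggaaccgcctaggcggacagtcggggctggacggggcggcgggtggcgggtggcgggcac
Top2a, chr11:99024190-99024339, minus strand: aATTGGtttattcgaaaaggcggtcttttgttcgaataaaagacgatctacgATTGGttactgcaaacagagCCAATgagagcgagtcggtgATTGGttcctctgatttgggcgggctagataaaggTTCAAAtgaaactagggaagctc
Ccnb1, chr13:100786487-100786636, minus strand: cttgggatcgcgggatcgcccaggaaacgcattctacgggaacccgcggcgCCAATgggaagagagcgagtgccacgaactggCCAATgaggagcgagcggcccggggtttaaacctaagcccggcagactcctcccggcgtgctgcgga
Mcm6, chr1:128359706-128359855, minus strand: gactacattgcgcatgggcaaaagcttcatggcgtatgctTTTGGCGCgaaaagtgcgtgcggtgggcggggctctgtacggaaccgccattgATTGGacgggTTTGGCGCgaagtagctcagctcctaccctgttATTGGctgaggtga
Mcm5, chr8:75109359-75109508, plus strand: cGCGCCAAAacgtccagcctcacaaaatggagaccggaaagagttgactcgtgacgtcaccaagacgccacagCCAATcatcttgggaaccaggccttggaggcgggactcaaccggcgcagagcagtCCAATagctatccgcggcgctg

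Both selecting genes carried CCAAT and CHR letters in these windows, 1 and 2 in Mki67 and 4 and 1 in Top2a, as did Cdk1 with 2 and 2. The Ccnb1 window carried 2 CCAAT boxes and no CHR core, and the same windows of Ccnb2 and Plk1, other mitosis genes, held no CHR core either. Mcm6 carried 2 CCAAT boxes and 2 E2F-type matches and Mcm5 carried 2 and 1, with no CHR core in either, while the window of the S phase gene Rrm2 held no E2F-type letters and that of Cdc6 no CCAAT box. Over promoters of 300 bases (250 before to 50 after the start), the CHR core was found in 68.4% of 38 promoters of the G2 and mitosis list, 12.9% of 31 promoters of the S phase list and 17.9% of all 32851 promoters. E2F-type letters were found in 2.63%, 29.0% and 1.56%, and CCAAT in 78.9%, 61.3% and 37.4%. CCAAT and CHR occurred together in 57.9% of the G2 and mitosis promoters, 9.68% of the S phase promoters and 6.95% of all. The promoters matched 35 of 44 listed G2 and mitosis genes and 28 of 35 listed S phase genes. Promoters of 1 chromosome were left out of the search, so all promoters here means all that were searched. Matches of different motifs overlapped in 1 of the 69 promoters of both lists and in 49 of all promoters. These matches describe letters only.

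The share of cells that were cycling differed between the gates. With all counts, 9.75% of cycling plus non-cycling cells were cycling (95% exact binomial interval 9.06 to 10.5, counting error only, as for all intervals here). The share was 8.48% (7.70 to 9.32) in the macrophage gate, 23.5% (20.1 to 27.2) in the cDC1 gate, 22.5% (19.0 to 26.4) in the cDC2 gate and 19.5% (16.98 to 22.3) in the Fn1-Ccr2 gate. The 3 other gates were thus above the macrophage gate with intervals that did not touch its own, and among those 3 gates the intervals overlapped.

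Depth differed between gates, with a median over cycling plus non-cycling cells of 9019 UMIs in the macrophage gate, 14104.5 in the cDC1 gate, 13092 in the cDC2 gate and 15668 in the Fn1-Ccr2 gate. With every cell thinned to 5000 UMIs and the rules applied to the thinned counts, the shares were 5.05% (172 of 3404 cells, 4.34 to 5.84) in the macrophage gate, 14.4% (61 of 423, 11.2 to 18.1) in the cDC1 gate, 13.3% (64 of 481, 10.4 to 16.7) in the cDC2 gate and 11.5% (73 of 637, 9.09 to 14.2) in the Fn1-Ccr2 gate. Thinning left out 49 members and 1877 non-cycling cells that held fewer UMIs. The order with the macrophage gate lowest was the same at equal depth.

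Per barcode run, the thinned share in the macrophage gate was 2.47% at the lowest, 4.96% at the median and 7.17% at the highest. The matching values were 8.20, 16.7 and 22.4% in the cDC1 gate, 7.14, 14.1 and 19.4% in the cDC2 gate, and 7.27, 11.0 and 16.3% in the Fn1-Ccr2 gate. In 6 of 6 runs each of these 3 gates lay above the macrophage gate, both thinned and with all counts.

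**Figure D1:**
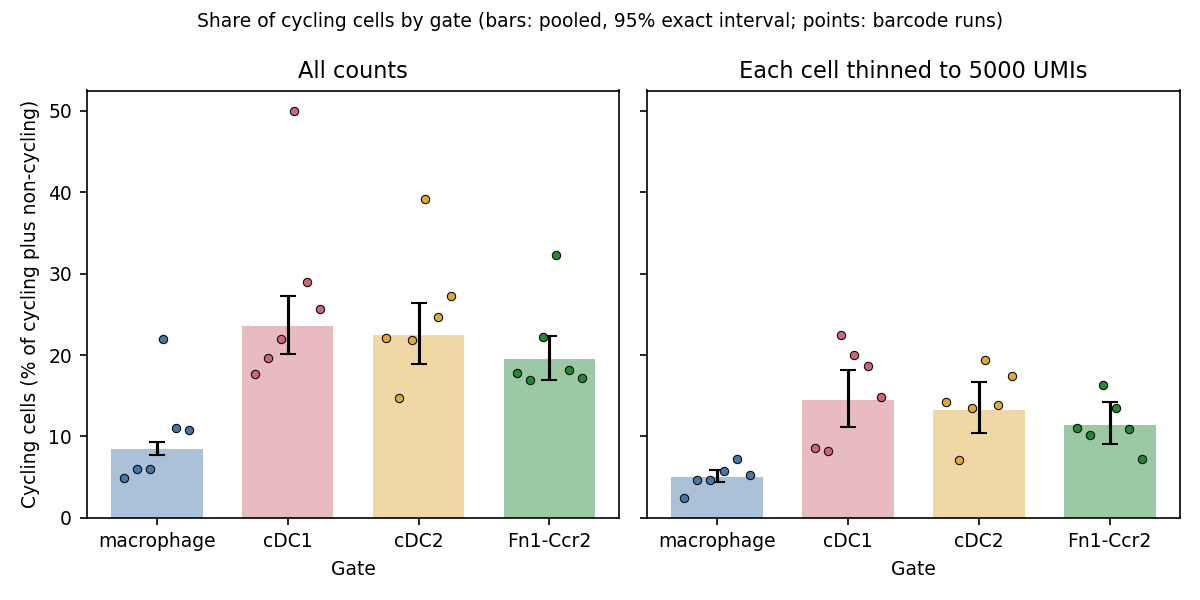
Share of cycling cells (percent of cycling plus non-cycling cells) by gate, with all counts on the left and each cell thinned to 5000 UMIs on the right. Bars give the pooled share with its 95% exact interval and points give the 6 barcode runs. The macrophage gate is lowest on both sides (8.48 and 5.05%), and the highest point of each gate with all counts is barcode run 4, the run of deepest cells.

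Dendritic cells in a migratory state and neutrophils were counted with the same rule for comparison. Cells with UMIs of both Ccr7 and Fscn1, markers of migrating dendritic cells, were cycling in 8.03% of cases (11 of 137, 4.08 to 13.9) with all counts and in 2.22% (2 of 90, 0.270 to 7.80) when thinned. Both intervals overlapped those of the macrophage gate (7.70 to 9.32 with all counts and 4.34 to 5.84 thinned). They lay below those of the cDC1 gate (20.1 to 27.2 and 11.2 to 18.1) and the cDC2 gate (19.0 to 26.4 and 10.4 to 16.7). Of 69 cells with at least 10 UMIs of both S100a8 and S100a9, which mark neutrophils, 0 were cycling at a median of 2978 UMIs. Here 3 counts of 69 would be 4.35% and the exact upper limit is 5.21%. When thinned, 1 such cell was left.

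Within the macrophage gate, cells with UMIs of state genes differed in their cycling share. At 5000 UMIs, cells with Tmem119, a membrane protein gene known from microglia, were cycling in 6.70% (54 of 806, 5.07 to 8.65) and cells with at least 2 UMIs of the lipid-associated gene Gpnmb in 4.82% (12 cells, 2.51 to 8.27). The share was 3.15% (15 of 476) with the alternative activation gene Retnla, 2.87% (21 of 731) with the anti-inflammatory cytokine gene Il10 and 1.92% (13 of 678, 1.02 to 3.26) with at least 3 UMIs of Thbs1, which encodes thrombospondin. It was 1.09% (2 of 184, 0.132 to 3.87) with the resident macrophage receptor gene Lyve1 and 0.645% (1 of 155, 0.0163 to 3.54) with the monocyte gene Ly6c2. With all counts the same states gave 13.1, 14.8, 9.47, 6.10, 7.41, 3.83 and 4.30%, so the Lyve1 and Ly6c2 cells were lowest both ways, while Gpnmb cells stood first with all counts and Tmem119 cells when thinned. This pooled order did not hold run by run. Of the 54 cycling Tmem119 cells, 19, 17 and 15 came from barcode runs 2, 5 and 6, with shares of 7.09, 8.50 and 9.80%, whereas in runs 1, 3 and 4 the Tmem119 share (1.47, 1.15 and 3.33%) lay below that of Il10 cells (1.68, 3.88 and 6.52%). Both cycling Lyve1 cells came from run 4.

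The rule itself was graded in the members. They held a median of 5 UMIs each of Mki67 and Top2a. The S phase list summed to 1049 CPM and the G2 and mitosis list to 797 CPM in the 75 members with 1 UMI of each selecting gene, just inside the rule. Just outside it, cells with 1 UMI in all had 556 and 559 CPM, and cells with 2 or more UMIs of only one gene had 712 and 1011 CPM, against 452 and 470.3 CPM in cells with none. In the 192 members with over 20 UMIs of the pair, the lists reached 2592 and 5493 CPM. Members at the edge of the rule were therefore nearer to the excluded cells than to the members with many UMIs.

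**Figure D2:**
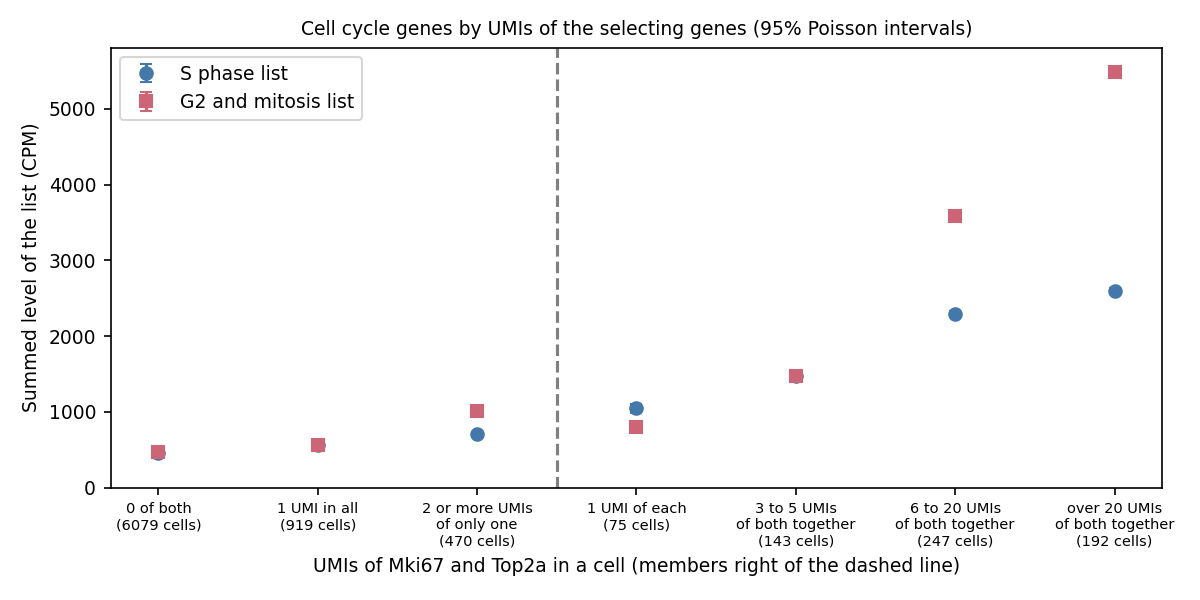
Summed level (CPM) of the S phase list (circles) and the G2 and mitosis list (squares) by the number of UMIs of Mki67 and Top2a in a cell, with 95% Poisson intervals that mostly lie within the symbols. Members stand to the right of the dashed line, and the G2 and mitosis list ranges from 797 CPM at 1 UMI of each gene to 5493 CPM at over 20.

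Genes were set against non-cycling cells of the same gate wherever both groups together held at least 50 UMIs, and a gene was called higher or lower at a fold of 2 or more either way, with 1 UMI added to each sum. Over all members, 852 of 11895 genes (7.16%) were higher and 321 (2.7%) lower. For the macrophage gate 827 of 11342 (7.29%) were higher and 204 (1.8%) lower, and in the cDC1 gate 542 of 8452 (6.41%) were higher and 167 (1.98%) lower. In the cDC2 gate 421 of 7712 (5.46%) were higher and 90 (1.17%) lower, and in the Fn1-Ccr2 gate 530 of 9388 (5.65%) were higher and 139 (1.48%) lower. The median gene stood at 0.05 to 0.09 on the log2 scale. Since the gates share cells, agreement between them is not independent. Among the 7508 genes with enough UMIs in all 4 gates, 262 were higher in all 4 and 6 were lower in all 4.

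Most DNA replication and S phase genes were higher in members of every gate. Of the tested genes of this list, 32 of 35 were called higher in the macrophage gate, 32 of 33 in the cDC1 gate, 29 of 30 in the cDC2 gate and 34 of 35 in the Fn1-Ccr2 gate, with none lower. Their median log2 fold was 2.99, 3.13, 3.22 and 2.76 in the same order. The helicase gene Mcm5 stood at 95.2 CPM in macrophage-gate members (86.8, 97.4 and 107 in the lowest, median and highest run) against 11.2 in non-cycling cells (6.10, 9.85 and 15.6). Its fold was 8.49, 6.52, 12.4 and 9.05 in the 4 gates, and the run ranges of members and non-cycling cells did not overlap in the macrophage gate.

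Rrm2, the subunit of ribonucleotide reductase that limits the supply of DNA building blocks, was nearly confined to members. It was detected in 52.3% of macrophage-gate members and 1.47% of non-cycling cells, at 116 and 1.56 CPM, a 73.2-fold difference (Poisson interval 58.2 to 95.9). In the cDC1, cDC2 and Fn1-Ccr2 gates Rrm2 stood at 112, 138 and 135 CPM in members, with 10, 3 and 7 UMIs in all non-cycling cells of the gate. Thymidylate synthase (Tyms) differed 15.0-, 14.1-, 12.8- and 14.6-fold. Pcna, the sliding clamp of DNA polymerase, which non-cycling cells also held (88.5 CPM in the macrophage gate), differed less, by 2.13, 2.36, 2.61 and 2.38.

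Enzymes that make nucleotides followed in part. Of the nucleotide synthesis list, which shares 6 genes with the S phase list, 15 of 22 tested genes were higher in the macrophage gate, 11 of 20 in the cDC1 gate, 9 of 17 in the cDC2 gate and 11 of 21 in the Fn1-Ccr2 gate. Dut, which keeps uracil out of DNA, stood at 103 against 12.9 CPM in the macrophage gate, and its fold over the 4 gates ranged from 5.72 in cDC1 to 10.4 in Fn1-Ccr2. The lowest of the list in the macrophage gate was Adsl, a purine synthesis enzyme gene, at a fold of 1.37.

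The G2 and mitosis genes showed the larger folds. Macrophage-gate members had 43 of 44 tested genes higher, in the cDC1 gate 36 of 37, in the cDC2 gate 29 of 31 and in the Fn1-Ccr2 gate 38 of 38, with none lower and median log2 folds of 4.82, 4.61, 4.58 and 4.52. This list belongs to the program of the selecting genes. Cdk1 was detected in 66.6% of macrophage-gate members against 4.68% of non-cycling cells, at 119 (92.9, 127 and 135 over runs) and 5.38 CPM (3.56, 4.94 and 7.64). Its folds were 22.0, 16.3, 36.2 and 19.2 in the macrophage, cDC1, cDC2 and Fn1-Ccr2 gates.

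The mitotic cyclins were rarer outside the members. Ccna2 (cyclin A2) stood at 70.1 CPM against 0.826 in the macrophage gate, and at 66.9, 63.2 and 64.5 CPM in members of the cDC1, cDC2 and Fn1-Ccr2 gates. Ccnb1 (cyclin B1) stood at 47.2 CPM in macrophage-gate members and at 29.2, 23.6 and 30.1 CPM in the other gates. In non-cycling cells Ccnb1 stood at 0.804 CPM in the macrophage gate and had 1, 4 and 6 UMIs in all in the others. Ube2c, which tags cyclins for destruction at the end of mitosis, stood at 235, 268, 211 and 294 CPM in members of the 4 gates.

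The genes of highest fold, among those detected in at least 25% of members, were nearly all of mitosis, the histones or DNA replication. In the macrophage gate these were Hmmr (52.9 against 0.223 CPM, 216-fold), Neil3, Aspm, Pbk, Hist1h1b, Nuf2, Ccna2, Kif4, Hist1h2ap and Nusap1 (75.4-fold). In the cDC1 gate they were Hist1h3c, Pbk, Melk, Esco2, Neil3, Hmmr, Mns1, Kif4, Kif11 and Cep55. Of these, Hist1h3c, Pbk, Melk, Esco2, Neil3 and Mns1 had no UMI in the non-cycling cDC1-gate cells, which makes them at least 65.6-, 63.2-, 59.7-, 43.3-, 38.1- and 36.9-fold higher against 3 UMIs over the group. Melk, a mitotic kinase gene, led the cDC2 gate as well, at least 61.0-fold higher, before Rrm2, Ska1, Hist1h2ap, Nusap1, Kntc1, Cdca5, Hist1h1b, Ccna2 and Spc24.

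The Fn1-Ccr2 gate was led by Hist1h1b, a linker histone gene, at 145 against 0.617 CPM (206-fold, interval 114 to 588). Rrm2, Esco2, Ube2c, Hmmr, Kif11, Pbk, Pclaf, Mybl2 and Ccna2 followed. Of the histone list, 13 of 15 genes were higher in the macrophage gate, 11 of 14 in cDC1, 9 of 12 in cDC2 and 12 of 14 in Fn1-Ccr2. Reads of the near-identical Hist1h genes can be split between copies, so their single values are uncertain. The replacement histone gene H2afz was present in nearly every cell and stood at 2178 against 907 CPM in the macrophage gate (2.40-fold), but at 3993 against 2701 in the cDC1 gate (1.48-fold, not called).

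Each member was also placed by its own counts. In the 608 members with at least 5000 UMIs, thinned to that depth, the S phase list made up a median of 0.18% of UMIs (quartiles 0.06 and 0.34) and the G2 and mitosis list 0.38% (0.16 and 0.58), against 0.04 and 0.04% in non-cycling cells. The G2 and mitosis list exceeded the S phase list in 65.8% of members (400 cells, 61.9 to 69.6). That share was 66.6% (61.5 to 71.4) in the macrophage gate, 72.9% (64.3 to 80.3) in the cDC1 gate, 64.3% (54.7 to 73.1) in the cDC2 gate and 59.9% (52.1 to 67.3) in the Fn1-Ccr2 gate, with overlapping intervals. In non-cycling cells it was 43.6% over all and 42.0, 51.6, 47.3 and 35.7% by gate, so cDC1 was highest and Fn1-Ccr2 lowest there too. Of those 4202 cells, 3983 had values within 0.1 percentage points of each other. The lists hold 44 and 35 genes and were not scaled for size, so the share does not count cells in a phase. Of the 608, 196 had values within 0.1 percentage points of each other and could not be placed firmly. The selecting genes themselves are of G2 and mitosis, which bears on this share.

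**Figure D3:**
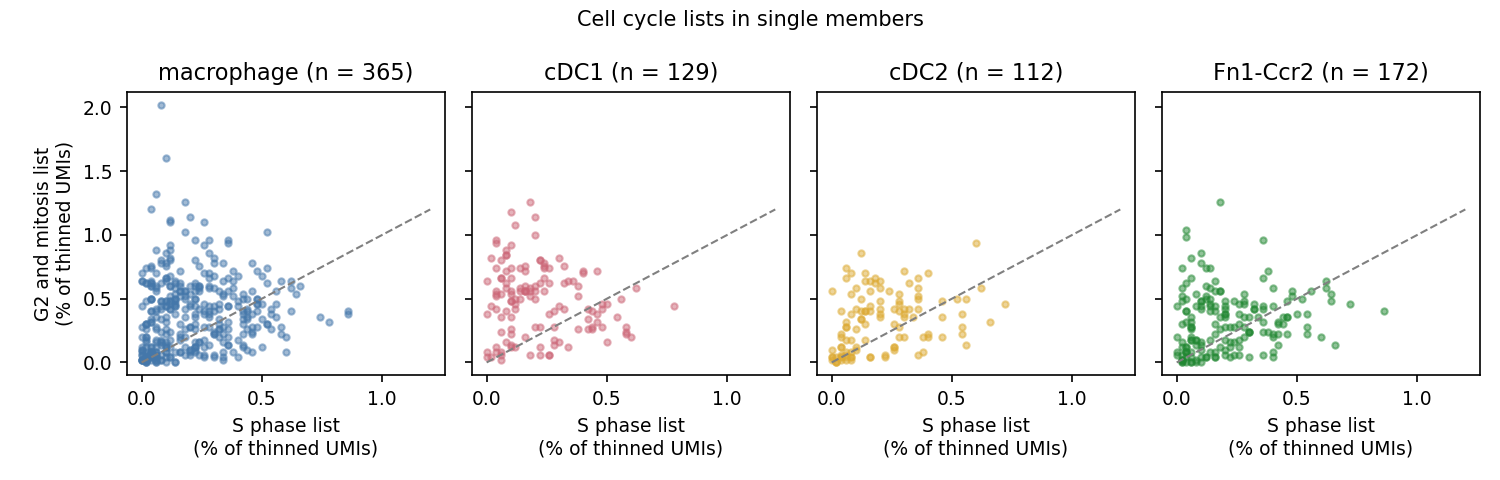
Each point is 1 member thinned to 5000 UMIs, by gate, with the S phase list on the horizontal axis and the G2 and mitosis list on the vertical axis (percent of the thinned UMIs). The dashed line marks equal values, and 66.6, 72.9, 64.3 and 59.9% of points lie above it from left to right.

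Regulators of the cycle differed gene by gene. The kinase genes Cdk4 and Cdk2, which act in G1 and at S phase entry, stood at 102 against 48.1 and 27.0 against 12.4 CPM in the macrophage gate. The folds of Cdk4 were 2.12, 2.33, 2.40 and 2.11 over the gates. The D cyclin genes, their partners, were not called: Ccnd1 had folds of 1.25, 0.833, 0.846 and 1.49 and Ccnd3 of 1.89, 1.35, 1.22 and 1.80.

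Among inhibitors, Cdkn2c, which encodes the CDK4 and CDK6 inhibitor p18, was higher in members, at 40.5 against 4.76 CPM in the macrophage gate (8.50-fold) and with folds of 2.66, 4.21 and 5.61 in the others. Cdkn1a, which encodes the stress-induced inhibitor p21, stood at 416 against 487 CPM in the macrophage gate and had folds of 0.854, 1.14, 0.977 and 0.919. Cdkn2d, which encodes the related inhibitor p19, was higher in the macrophage, cDC1 and Fn1-Ccr2 gates (2.50-, 2.31- and 2.37-fold) and had a fold of 1.91 in the cDC2 gate. The mitotic transcription factor gene Foxm1 was detected in 32.4% of macrophage-gate members and 0.722% of non-cycling cells (36.1-fold), while Myc had folds of 0.900, 1.26, 0.969 and 1.05. In all, 10 of 26, 9 of 24, 8 of 24 and 9 of 24 tested genes of this list were higher in the 4 gates and none lower.

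DNA repair and checkpoint genes were higher in 14 of 20, 7 of 13, 7 of 11 and 12 of 15 tested cases. The median log2 fold of the tested genes was 2.32, 1.77, 1.75 and 1.97 in the macrophage, cDC1, cDC2 and Fn1-Ccr2 gates. The damage-response gene Trp53 was the lowest of the list in the macrophage gate, at a fold of 1.32.

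Metabolic genes were not called. None of the 13 tested glycolysis genes and none of the 15 tested respiratory chain genes was called in any gate, and their median log2 folds lay between 0.13 and 0.28 and between 0.28 and 0.36. Of the 16 tested antioxidant genes, Prdx4, a peroxiredoxin of the endoplasmic reticulum, was the gene called higher in each gate. Prdx4 stood at 159 against 66.6 CPM in the macrophage gate (134, 160.3, 187 over runs against 45.1, 67.4, 74.7), with run ranges that did not overlap, and its folds were 2.39, 3.12, 3.19 and 2.22. The heme-degrading enzyme gene Hmox1 was lower in Fn1-Ccr2-gate members (169.7 against 383 CPM) and uncalled elsewhere.

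**Figure D4:**
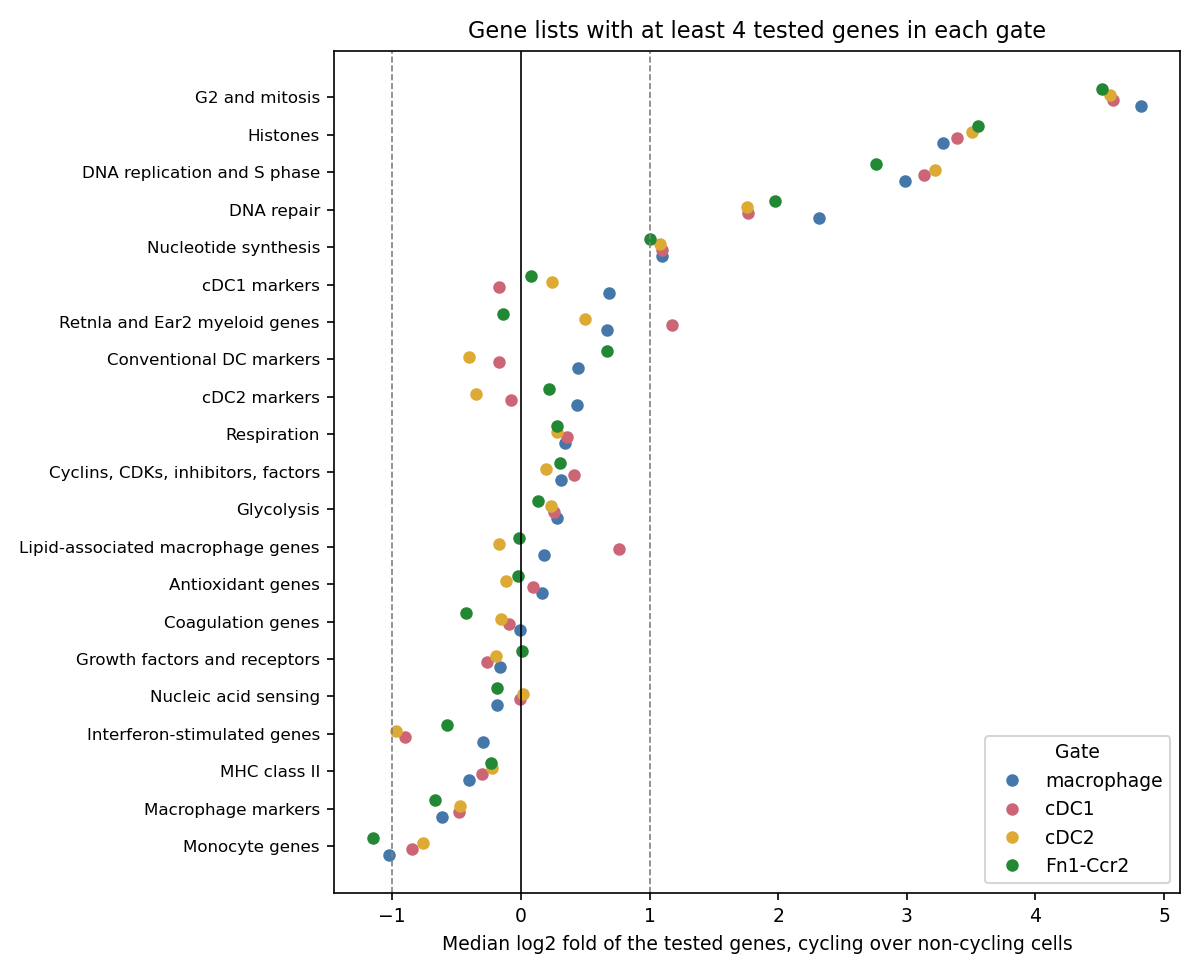
Median log2 fold of the tested genes of each list, cycling over non-cycling cells, with 1 point per gate and dashed lines at a fold of 2 either way. The 5 lists at the top, all of the cell cycle, nucleotides or DNA repair, lie above 1 or at 1, and the monocyte and macrophage lists lie below 0 in all 4 gates.

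The study is about sensing of tumor nucleic acids, so the genes of that pathway were examined in the members. Mb21d1, the DNA sensor cGAS, stood at 33.1 against 11.8 CPM in the cDC1 gate (2.78-fold, interval 2.05 to 3.84), and its folds were 2.89 in cDC2 and 2.77 in Fn1-Ccr2. Macrophage-gate members had Mb21d1 at 26.4 against 13.7 CPM (1.94-fold), just under the fold for a call. Members had the higher Mb21d1 level in 6 of 6 runs in each gate. Tmem173, which encodes the adaptor STING that acts after cGAS, did not differ in this way, with folds of 0.980, 1.27, 1.01 and 0.900.

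RNase H2, which removes RNA from RNA:DNA hybrids, was higher in members through its subunit gene Rnaseh2b in every gate, with folds of 2.87, 5.05, 5.13 and 3.58. Rnaseh2b in the macrophage gate stood at 42.4 against 14.8 CPM, and the run ranges (37.5 to 50.7 and 11.5 to 16.4) did not overlap. Rnaseh2a was called in the other 3 gates (folds 3.18, 2.11 and 2.03) and had a fold of 1.91 in the macrophage gate, and Rnaseh2c was called in the cDC1 and cDC2 gates (2.60 and 2.09). The Rnaseh2a call was lost in 7 of 17 alternative settings in both the cDC2 and Fn1-Ccr2 gates, with folds down to 1.70 and 1.69. Other sensors were lower, namely the endosomal RNA receptor gene Tlr7 in the macrophage and Fn1-Ccr2 gates (2.01- and 2.65-fold) and Ifi204 in the cDC1, cDC2 and Fn1-Ccr2 gates. Tlr7 in the macrophage gate lost its call in 6 of the 17 settings. Ifi204 belongs to a family of near-identical genes, so its counts are uncertain. Over the list, 1 gene was higher and 1 lower of 17 in the macrophage gate, 4 and 1 of 16 in cDC1, 4 and 1 of 13 in cDC2, and 3 and 2 of 15 in Fn1-Ccr2.

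Of the tumor antigen transcripts that the study names, Lyar, a nucleolar protein gene, was higher in the macrophage, cDC1 and cDC2 gates, at 59.0 against 27.5, 69.9 against 30.7 and 80.8 against 35.8 CPM. Its fold in the Fn1-Ccr2 gate was 1.90, under the call. Ddx20, an RNA helicase gene, was called in the cDC1 and Fn1-Ccr2 gates (folds 2.52 and 2.70, on 32 and 39 UMIs of members). Hspa4l and Acrbp were not called where tested. Keratin transcripts of tumor cells did not follow in summed level. Krt8 had a UMI in 14.9% of members and 12.7% of non-cycling cells and Krt18 in 15.7 and 9.64%. The epithelial list summed to 30.4 CPM in members against 52.6 CPM. The rule excludes cells with any raw UMI of Epcam, which is stricter for the deeper members. The lower epithelial level can therefore not be separated from the rule.

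Some interferon-induced genes were lower in the dendritic cell gates and others were not. In the cDC1 gate 6 of 14 were lower (Isg15, Ifit3, Rsad2, Irf7, Oasl2, Cxcl9) and 2 higher (Cxcl10, Mid1), and in the cDC2 gate 5 of 13 were lower (Ifit1, Ifit3, Rsad2, Irf7, Ly6a) and none higher. In the macrophage and Fn1-Ccr2 gates the gene called was Ly6a, which was lower. Several of these calls rested on the setting: of 17 alternative settings, Ly6a in the macrophage gate lost its call in 10, and in cDC1 Cxcl9 lost it in 8, Rsad2 in 6, Oasl2 in 5 and Ifit3 in 4. Among cells in exactly 1 gate the ratio of Ly6a in Fn1-Ccr2 turned to 1.46 and that of Cxcl9 in cDC1 to 1.11. The median log2 fold of the list was -0.29, -0.90, -0.97 and -0.57 in the macrophage, cDC1, cDC2 and Fn1-Ccr2 gates, where all tested genes had medians of 0.05 to 0.09.

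Irf7, the transcription factor that amplifies the interferon response, stood at 70.5 CPM in cDC1-gate members (28.7, 62.4 and 122 over runs) against 191 (51.4, 196 and 277), lower in 6 of 6 runs although the ranges overlapped. In the cDC2 gate it stood at 30.8 against 67.8 CPM, while in the macrophage gate it stood at 129.5 against 165 (fold 0.785, not called). The chemokine gene Cxcl10, also induced by interferon, went the other way in the cDC1 gate, at 184 against 43.6 CPM, with a UMI in 18.7% of members and 12.6% of non-cycling cells. Cxcl10 had folds of 1.63, 1.05 and 1.65 in the other gates. The members of the list therefore did not share 1 direction.

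Slfn5, a Schlafen gene that interferon induces, was among the 6 genes lower in all 4 gates. In the macrophage gate it stood at 37.1 CPM in members (16.97, 26.2 and 54.4 over runs) and 117 in non-cycling cells (75.1, 116 and 179.7), with no overlap of runs (3.14-fold lower, ratio interval 0.283 to 0.354). It was detected in 29.4% of members and 38.8% of non-cycling cells, although members held more UMIs. Levels were 39.8 against 120.2 CPM in the cDC1 gate (lower in 5 of 6 runs), 22.4 against 82.5 in the cDC2 gate and 29.9 against 88.9 in the Fn1-Ccr2 gate (lower in 6 of 6 runs in both).

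Slfn5 was also lower within each macrophage state. The ratio of members to non-cycling cells was 0.189 among cells with Il10, 0.210 with Lyve1, 0.269 with Retnla, 0.334 with Ly6c2, 0.363 with Thbs1, 0.399 with Tmem119 and 0.406 with Gpnmb. The Lyve1 and Ly6c2 ratios rest on few cells, with 12 and 11 members holding 19 and 20 UMIs of Slfn5. Of the 12 Lyve1 members, 7 came from barcode run 4. With all steps repeated on counts thinned to 5000 UMIs, the ratio was 0.203, 0.646, 0.201 and 0.391 in the macrophage, cDC1, cDC2 and Fn1-Ccr2 gates, so the cDC1 value no longer reached the fold. Among cells in exactly 1 gate, of which 38 were Fn1-Ccr2 members, the Fn1-Ccr2 ratio was 0.785, which also missed it. The other genes lower in all 4 gates were Kdm5b, a histone demethylase gene, Fcgr4, an Fc receptor gene, Spon1, Igfbp5 and Ly6c2. Kdm5b stood at 5.35 against 13.3 CPM in the macrophage gate with folds of 0.411, 0.279, 0.368 and 0.488, while Igfbp5 and Spon1 turned direction in part of the gates at 5000 UMIs.

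The genes of lowest fold in the macrophage gate were Il10, Clec10a, Slfn5, C4b, Ccl7, Ccl8, Selenop, Csf3r, Tcp11l2 and Rgl1. Il10 stood at 41.9 CPM (19.2, 39.96 and 72.5 over runs) against 166 (86.0, 162 and 395), a 3.96-fold difference with no overlap of runs, and had a UMI in 18.3% of members and 26.2% of non-cycling cells. Il10 encodes an anti-inflammatory cytokine.

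Monocyte-recruiting chemokines and a selenium carrier followed the same direction. Ccl7 stood at 301 against 903 CPM and Ccl8 at 647 against 1916, both lower in 6 of 6 runs with ranges that overlapped. Selenop, which exports selenium, stood at 493 against 1329 CPM, again lower in 6 of 6 runs. Ccl8 was however higher in members among Gpnmb cells (575 against 251 CPM) and Ly6c2 cells, and close to equal among Thbs1 cells (607 against 588 CPM). The Ccl8 difference among Ly6c2 cells rests on 11 members. The complement gene C4b (51.8 against 160.2 CPM) has a near-identical copy in the genome, so its counts are uncertain.

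Maf, a transcription factor gene of differentiated macrophages, stood at 69.8 CPM in macrophage-gate members (40.5, 51.2 and 162 over runs) against 145 in non-cycling cells (104, 134 and 246), 2.08-fold lower. It was lower in 6 of 6 runs, although the ranges overlapped. Of the 12 macrophage markers 1 was lower in the macrophage gate, and the list had a median log2 fold of -0.62. The lipid carrier gene Apoe stood at 11509 against 20197 CPM and the gate gene C1qa at 3222 against 4205. Both were lower in 6 of 6 runs but short of the fold for a call. The gate minimum of C1qa is in raw UMIs, and members were deeper (median 19804 against 8534 UMIs). Members could thus enter at a lower C1qa level, so the C1qa difference cannot be separated from the gate.

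Resident-like and monocyte lists each had called genes in the macrophage gate. Of 7 resident-like genes 4 were lower (Lyve1, Cd209f, Cd209g, Cd163), while Timd4 had a fold of 1.44, and Lyve1 stood at 12.0 against 34.1 CPM with a UMI in 3.02% of members and 7.01% of non-cycling cells. These UMIs were unevenly spread, since Lyve1 in members was 0, 0.736 and 44.8 CPM in the lowest, median and highest run. Of 7 monocyte genes 4 were lower (Ly6c2, Plac8, Chil3, Thbs1), and none of the 8 lipid-associated genes was called.

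Ly6c2, which marks monocytes fresh from blood, was lower in every gate, at 3.82 against 28.9 CPM in the macrophage gate, 5.12 against 53.7 in cDC1, 2.00 against 27.6 in cDC2 and 1.21 against 25.02 in Fn1-Ccr2. These levels rest on 35, 17, 5 and 6 UMIs in members. Plac8, another gene of young monocytes, stood at 22.3 against 73.3 CPM in the macrophage gate and at 18.6 against 106 in the Fn1-Ccr2 gate, with no overlap of runs in both. In the cDC2 gate Plac8 stood at 92.9 against 326 CPM. Fewer monocyte-like cells and less RNA per cell cannot be told apart in these sums.

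Growth factor receptors differed between gates. Csf1r stood at 409 against 609 CPM in the macrophage gate (lower in 6 of 6 runs, fold 0.672, not called). Csf3r, the receptor for the granulocyte growth factor, was lower at 12.6 against 33.5 CPM with no overlap of runs. Flt3 stood at 16.3 against 4.44 CPM (3.67-fold higher) and the stem cell factor receptor gene Kit at 9.61 against 4.51 (2.14-fold), each detected in 10.1% of members. Kit lost its call in 7 of 17 alternative settings and stood at 1.07 among cells of 5000 to 20000 UMIs. Within the cDC1 and cDC2 gates, where Flt3 is a type marker, its folds were 0.903 and 0.994.

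Some dendritic cell genes were also higher in the macrophage gate, while most tested ones were not called. Xcr1 stood at 14.6 against 3.55 CPM (4.13-fold higher) and Cd209a at 45.1 against 21.8 (2.07-fold). Cd209a lost its call in 7 of 17 alternative settings. Of the cDC1 markers 2 of 8 tested were higher (Xcr1, Itgae) and 0 lower. Of the 9 cDC2 markers 2 were higher (Cd209a, Cd7) and 1 lower (Clec10a). The cDC2 list summed to 648 CPM in members against 741. The macrophage gate shared 48 members with the cDC1 gate, which is 12.1% of its members, against 3.61% of its non-cycling cells. These overlap shares were not taken at equal depth. With members, gates and levels all taken from counts thinned to 5000 UMIs, the Flt3 ratio in the macrophage gate was 1.08 and the Cd209a ratio 0.561, below 1, while Xcr1 stood at 6.75. The part that gate overlap has in the other macrophage-gate values was not tested beyond the cells in exactly 1 gate, given under the dependence on processing.

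Genes of lowest fold in the cDC1 gate included Slfn5, Bst1, Irf7, Selenop, Isg15, P3h2, Ears2, Lpar6 and Ms4a4c. Bst1, an ectoenzyme gene, stood at 12.95 against 35.8 CPM and was lower in 6 of 6 runs. The cDC1 markers were largely level between members and non-cycling cells, with 1 of 9 called, Snx22, which was lower at 9.34 against 23.7 CPM. The gate genes Xcr1 and Clec9a stood at 145 against 164 and 99.1 against 160.2 CPM, which cannot be separated from their own raw-UMI minimum.

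Of 4 tested genes of mature, migrating dendritic cells 3 were lower in cDC1-gate members (Ccr7, Ccl22, Il12b). Il12b, a subunit of the T cell-activating cytokine IL-12, stood at 2.41 against 81.3 CPM on 8 and 474 UMIs, and non-cycling cells held it unevenly (2.57, 17.3 and 293 CPM over runs). Ccr7 stood at 60.8 against 151 CPM (lower in 3 of 6 runs) and the chemokine gene Ccl22 at 15.4 against 91.4 (lower in 5 of 6). In the cDC2 gate Ccr7 had a fold of 0.811 and Ccl22 of 0.585, neither called. In the macrophage gate Il12b was by contrast higher in members (2.13-fold), the 1 gene called of 4 tested there. The list summed to 102 against 79.9 CPM in that gate. The Ccl22 direction in the cDC1 gate turned among cells of 5000 to 20000 UMIs, with a ratio of 1.11.

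Genes of lowest fold in the cDC2 gate included Slfn5, Plac8, Ifitm1, Cd63, Tcn2, Ifi204, Tcf4, Sema4d and Clec4n. Ifitm1, an interferon-induced membrane protein gene, stood at 103 against 286 CPM, and Tcf4, a transcription factor gene of plasmacytoid and some conventional dendritic cells, at 57.6 against 136, each lower in 5 of 6 runs. Of the cDC2 markers 3 of 9 were lower (Clec10a, Cd7, Ifitm1). Clec10a stood at 148 against 302 CPM with a UMI in nearly equal shares of cells (69.6 and 68.2%). Its call was lost in 8 of 17 alternative settings. The gate gene Cd209a stood at 589 against 749 CPM, which cannot be separated from its own raw-UMI minimum.

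In the Fn1-Ccr2 gate the genes of lowest fold were Rnase4, Slfn5, Hspa1a, Fcgr4, Lst1, Mmp12, C4b, C5ar1, Selenop and Hmox1. Rnase4, a secreted ribonuclease gene, stood at 20.03 against 63.2 CPM, and the elastase gene Mmp12 of macrophages at 148 against 354, both lower in 6 of 6 runs. Hspa1a has a near-identical copy, Hspa1b, so its counts are uncertain. Of the macrophage markers 4 of 12 were lower, among them C1qa, C1qb and Fcgr1, with C1qa at 839 against 1755 CPM. A smaller share of members than of non-cycling cells of this gate was also in the macrophage gate. That gate is set by C1qa itself, so this is not a separate observation. The gate genes Fn1 and Ccr2 stood at 2398 against 2889 and 545 against 619 CPM, which cannot be separated from their own raw-UMI minimums.

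**Figure D5:**
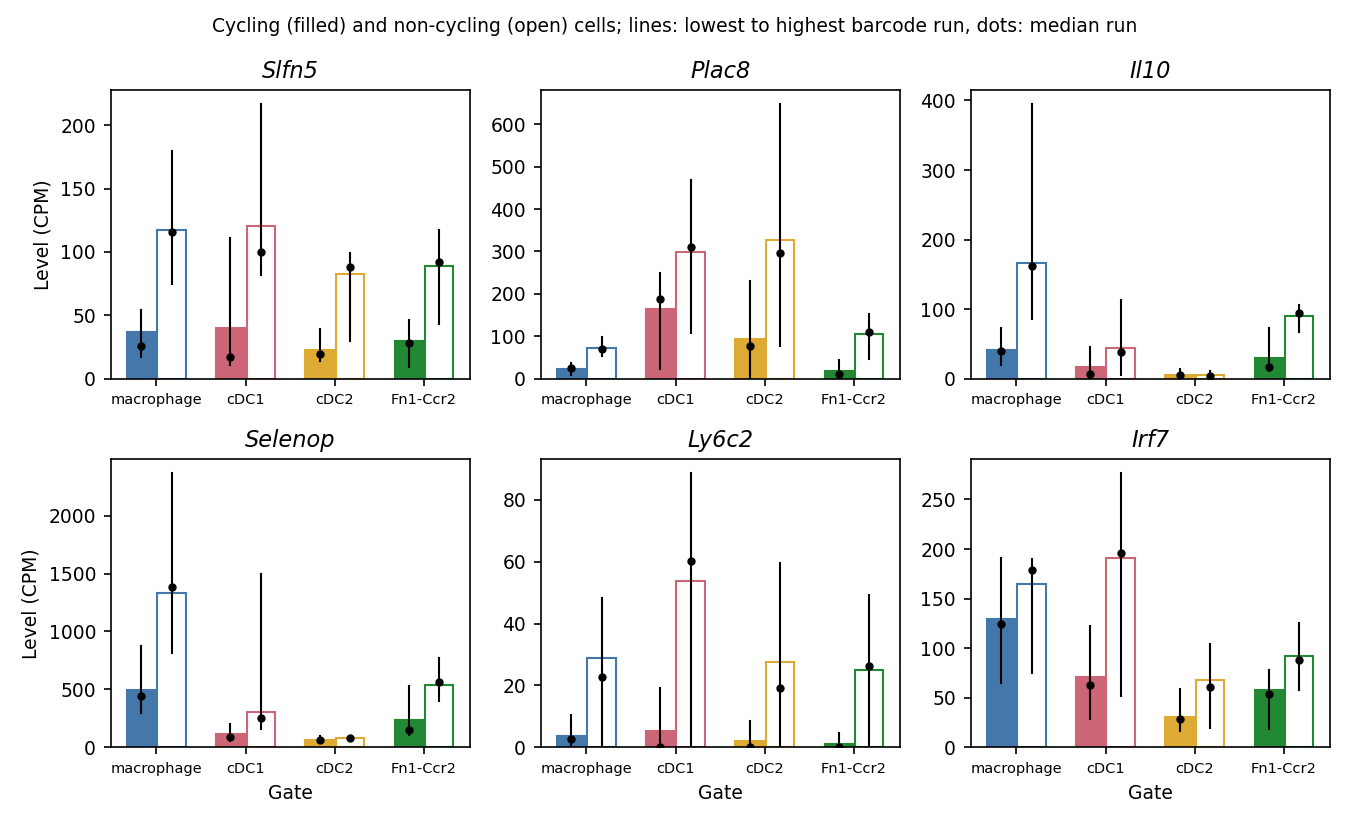
Levels (CPM) of 6 genes in cycling (filled) and non-cycling (open) cells of each gate. Bars give the pooled level, lines run from the lowest to the highest barcode run and dots mark the median run. Slfn5 is lower in members of all 4 gates (37.1 against 117 CPM in the macrophage gate), Il10, Plac8 and Selenop in the macrophage gate, Ly6c2 in all gates on few UMIs, and Irf7 in the cDC1 and cDC2 gates.

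Coagulation genes were examined because the study is about factor Xa. F10, which encodes factor X, was called in no gate and stood at 39.97 against 32.2 CPM in the macrophage gate, 32.5 against 19.7 in cDC1, 86.9 against 90.4 in cDC2 and 136 against 164 in Fn1-Ccr2. The F10 level was thus highest in the Fn1-Ccr2 gate, where 70.5% of members had a UMI. F13a1, the clot-stabilizing transglutaminase of tissue macrophages, was lower in the macrophage gate (153 against 321 CPM) and the cDC1 gate (31.0 against 82.5) and higher in the cDC2 gate (65.2 against 32.4). The cDC2 call of F13a1 was lost in 8 of 17 alternative settings, and its ratio turned to 0.570 among cells in exactly 1 gate. F3, which encodes tissue factor, was lower in the macrophage and Fn1-Ccr2 gates on 11 and 10 UMIs of members, and F7 was higher in the cDC1 gate (19.6 against 8.92 CPM, in 3 of 6 runs), a call lost in 7 of the 17 settings.

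Other genes that the study names were mostly short of the fold. In the macrophage gate the thioredoxin gene Txn1 stood at 897 against 579 CPM and was higher in 6 of 6 runs without reaching the fold, as it did in the other gates (folds 1.40, 1.57 and 1.34). Prdx5, Lgals3 and Fabp5 had folds of 1.01, 0.994 and 0.925 there, and the TGF-beta pathway genes Tgfbr1, Nrros and Lrrc32 had 0.758, 0.745 and 1.19. Klra17, Lilrb4a and Tnfrsf9 had folds of 1.18, 0.740 and 0.629. Mid1, a microtubule-associated ubiquitin ligase gene, differed strongly between runs in members, at 0, 71.9 and 205 CPM.

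MHC class II genes, which present antigen to CD4 T cells, were called in no gate. Their summed level was 26067 against 36189 CPM in the macrophage gate, 39884 against 50075 in cDC1, 41842 against 50829 in cDC2 and 30645 against 35845 in Fn1-Ccr2. Median log2 folds of the 7 genes were -0.41, -0.30, -0.22 and -0.23, all on the low side.

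Marker lists of other cell types were mostly at lower pooled levels in members than in non-cycling cells, with exceptions by gate. The selecting genes Cd3e and Epcam were at 0 by the selection rule. Of the lists the rule did not use, 1 of 5 neutrophil, 1 of 4 B cell and 1 of 4 endothelial markers had no UMI in members. So had 3 of 9 myeloid progenitor genes. Progenitor genes summed to 43.5 CPM in members (25.6 to 64.7 over runs) against 33.7 in non-cycling cells (17.6 to 43.1). They were higher in the macrophage gate (33.6 against 22.5 CPM) and the cDC2 gate (46.0 against 39.9). In the cDC1 and Fn1-Ccr2 gates they were lower (70.5 against 84.4 and 8.70 against 15.0 CPM). Over all members, the summed level of neutrophil markers was 12.9 CPM (4.87 to 20.3 over runs) against 199.5 in non-cycling cells (27.1 to 508), of T cell markers 3.64 against 4.37, of B cell markers 4.48 against 10.8, of NK cell markers 4.34 against 8.12 and of endothelial markers 11.9 against 22.1. Fibroblast markers were higher in the pool, at 145 against 31.7 CPM, and they ranged from 2.36 to 588 CPM over runs in members. The median run was however lower in members, at 7.70 against 18.5 CPM. A single member held 293 of the 461 UMIs of the collagen gene Col1a1, and the list stood at 72.0 against 26.8 CPM in the macrophage gate but 4.05 against 77.0 in the Fn1-Ccr2 gate. In the macrophage gate 1 member held 153 of 161 Col1a1 UMIs, and the median run was 7.83 CPM in members against 12.5. In the Fn1-Ccr2 gate 1 non-cycling cell held 262 of 297 Col1a1 UMIs. NK cell markers were higher in members of the cDC2 gate (14.0 CPM on 35 UMIs against 0 UMIs) and the cDC1 gate (2.71 against 0.172 CPM, on 9 and 1 UMIs). In the cDC1 gate the median run of members was 0 CPM. In pooled level, T cell markers were higher in the cDC2 gate (5.20 against 1.61 CPM), the Fn1-Ccr2 gate (1.82 against 0.176) and the macrophage gate (2.51 against 1.47). These levels rest on 13 and 8, 9 and 2, and 23 and 66 UMIs. In the cDC2 gate 1 member held 6 of the 13 UMIs, all of Trbc2. The median run there was 0 CPM in members against 1.14 in non-cycling cells. No doublet caller was run, so cells that hold RNA of 2 types remain among the members, and their part in these values was not tested.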

How the data were processed

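Single-cell RNA-seq counts were analysed as the authors deposited them, as raw UMI counts per gene and barcode in 1 matrix of CD11c-selected and 1 of CD4- and CD8-selected cells. The submitters' processing notes name Cell Ranger 3.0.2 and mm10. Barcodes with under 200 detected genes were left out (341 of the CD11c-selected matrix). Nothing maps barcodes to samples, so each matrix was 1 sample with no test and no p-value. Members and gene lists were chosen with earlier results of these data known. Counts were summed over cells and expressed per 1000000 (CPM), and folds were taken with 1 UMI added to each sum for genes with at least 50 UMIs over both groups. A gene was called at a fold of 2 either way. Intervals are exact binomial or Poisson at 95% and cover counting error only. For shares and phases, each cell was thinned to 5000 UMIs with a fixed seed. No doublet caller was run and no doublets were removed.

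Named genes were the 10 of highest and 10 of lowest fold per gate among called genes with a UMI in 25% or more of cells on their higher side, examples of the listed genes, the gate genes and genes the study names, and, chosen after their values were seen, the genes lower in all 4 gates, the marker genes of the gate check and other genes of the text outside these. Promoters came from RefSeq (GRCm38.p6), with those of 1 chromosome left out. The steps were tested on simulated data. Python 3.11.15, numpy 2.4.6, scipy 1.17.1, pandas 2.3.3 and matplotlib 3.10.9 were used. Alternatives comprised other member rules, depths, count minimums, weights, cells in exactly 1 gate and leaving out each barcode run. Some genes that the rule names are not reported here.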

Additional observations from a re-analysis of the deposited data

Results flagged for a closer look

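Cycling macrophage-gate cells were also present in the CD4- and CD8-selected matrix, which the comparisons above did not use. There, 48 of 641 cells of the macrophage gate met the rule for cycling cells (7.49%, exact binomial interval 5.57 to 9.81). With cells of both matrices thinned to 2500 UMIs, the share was 2.08% (10 of 481, 1.00 to 3.79) against 2.85% (93 of 3262, 2.31 to 3.48) in the CD11c-selected matrix, with overlapping intervals. Selection beads and tumor stage differed between the matrices, so their parts cannot be told apart.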

How the results depend on the processing

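No paired analysis was possible because the matrix has no map from barcodes to samples. With members defined by either gene, the counts were 2046 in all and 1308, 277, 318 and 395 in the macrophage, cDC1, cDC2 and Fn1-Ccr2 gates. At least 2 UMIs of both left 256 macrophage-gate members, and cells in exactly 1 gate left 73, 59 and 38 in the other 3. Shares in gate order were 2.85, 5.65, 5.90 and 5.70% at 2500 UMIs, 10.2, 23.2, 23.8 and 18.9% at 10000 UMIs, 8.48, 23.5, 22.5 and 19.5% unthinned and 16.4, 26.0, 32.0 and 22.6% with either gene. The macrophage gate was lowest in all 11 alternatives. Without 1 barcode run the thinned shares ranged from 4.44 to 5.48, 12.0 to 16.9, 12.6 to 14.9 and 10.3 to 12.3%.

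Genes higher and lower numbered 548 and 170 over all members, 502 and 103 (macrophage), 197 and 47 (cDC1), 133 and 25 (cDC2) and 243 and 53 (Fn1-Ccr2) at 200 UMIs or more, and 1330 and 640, 1378 and 482, 1016 and 436, 863 and 339, and 954 and 422 at 10 or more. Means over cells gave 567 (all), 332 (macrophage) and 224 (Fn1-Ccr2) lower. Cells of 5000 to 20000 UMIs gave 378 lower (macrophage), 244 higher (cDC2) and 273 lower (Fn1-Ccr2), and exactly 1 gate gave 227 (cDC2) and 264 (Fn1-Ccr2) higher. Full thinning (members, gates and levels) to 5000 UMIs gave 340 lower (macrophage), 298 (cDC1), 214 (cDC2) and 321 (Fn1-Ccr2) higher and 277 lower (Fn1-Ccr2). Leaving out 1 run gave 773 to 851, 738 to 842, 474 to 528, 358 to 435 and 492 to 528 higher and 277 to 361, 164 to 227, 131 to 165, 82 to 100 and 108 to 184 lower, in the order all, macrophage, cDC1, cDC2 and Fn1-Ccr2.

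Full thinning, means over barcode runs, leaving out cells with UMIs of fibroblast genes and the macrophage states were chosen after seeing the data. Of 193 gene and gate pairs, 180 kept their direction in all 17 settings, 108 kept the call and 85 lost it in some setting. These pairs were scored by the ratio alone, without the UMI minimum. By the gate rule, macrophage-gate cells in exactly 1 gate hold no UMI of Xcr1. The Xcr1 ratio in that setting therefore came from the added UMI only, and its kept call there carries no information. Ratios turned under full thinning for Cd209a (0.561) and Igfbp5 (1.09) in the macrophage gate, Igfbp5 (2.44) and Spon1 (1.48) in cDC1, Rsad2 (1.01) in cDC2 and Igfbp5 (1.13) in Fn1-Ccr2. They turned at 5000 to 20000 UMIs for Ccl22 (1.11) and Igfbp5 (1.39) in cDC1. Among cells in exactly 1 gate they turned for Selenop (1.48) and Cxcl9 (1.11) in cDC1, F13a1 (0.570) in cDC2, and Il10 (1.25), Ly6a (1.46) and Flt3 (0.973) in Fn1-Ccr2. The causes were not tested.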
